A study of Mus musculus with 30 samples.

Results

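A set of 13 array probes of 6 genes on mouse chromosome 14, the chromosome of Atxn7, was followed in the cerebellum of SCA7 knock-in (KI) and wild-type (WT) mice. They are 13 of the 41174 probes on the array, and 33114 probes could be tested over all ages. Of the set, 12 probes belong to 5 genes of the takusan type, D830030K20Rik, Gm3696, Gm10413, 4930555G01Rik and 2610042L04Rik, and 1 probe carries the name Ube2e2. The probes were chosen by their KI minus WT log2 values in these same mice, so KI minus WT is given below as a description and its size supports nothing. The measure that did not enter the choice directly is the change of that difference with age.

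SCA7 KI mice model spinocerebellar ataxia 7, a disease of cerebellum and retina caused by an expanded CAG repeat in Atxn7, whose protein is a subunit of the SAGA coactivator complex. All 30 mice were female, and the labels name their strain only as SCA7 KI or wild-type. The groups were 5 WT and 5 KI mice at postnatal day 10 (P10), 5 WT and 4 KI mice at P22, and 5 WT and 6 KI mice at week 11, with 1 cerebellum per array. P10 and P22 mice were decapitated and week 11 mice were killed by cervical dislocation, so the last age differs in that step too. Every value is a log2 ratio of a mouse's Cy5 signal to a Cy3 reference pooled from P10 mice of both genotypes, without dye swap. The replicates are mice with separate numbers in the labels. Mice are named here by genotype and number, as in WT 7.

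A knock-in allele made in embryonic stem cells of one strain and crossed into another keeps a stretch of donor chromosome around it, and genes in that stretch can carry donor alleles that differ in expression. The takusan genes form a large, mouse-expanded family in tandem copies near the proximal end of chromosome 14. Takusan proteins bind postsynaptic scaffold proteins of the PSD-95 family and modulate synaptic activity. The RefSeq gene table lists takusan as a synonym of 2610042L04Rik, and the other 4 genes are placed with it from general knowledge of the family. Ube2e2 is an E2 enzyme that hands ubiquitin to E3 ligases. The question put to these probes was whether KI minus WT stays the same over the 3 ages.

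The probe sequences are shown because near-identical gene copies decide what a probe can distinguish. Capitals in the first pair mark the 10 positions at which probes of D830030K20Rik and 4930555G01Rik differ, the other 50 of 60 being identical. Capitals in the other pairs mark the longest identical run, and the last 2 probes share no run of 20 bases with another member.
D830030K20Rik A_52_P218930: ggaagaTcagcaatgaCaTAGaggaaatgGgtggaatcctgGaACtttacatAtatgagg
4930555G01Rik A_52_P522048: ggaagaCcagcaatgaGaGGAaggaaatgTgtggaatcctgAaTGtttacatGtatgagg
Gm3696 A_52_P355751: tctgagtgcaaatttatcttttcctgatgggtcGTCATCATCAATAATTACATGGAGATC
4930555G01Rik A_52_P603540: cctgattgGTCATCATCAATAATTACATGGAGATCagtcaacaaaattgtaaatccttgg
Gm10413 A_52_P291428: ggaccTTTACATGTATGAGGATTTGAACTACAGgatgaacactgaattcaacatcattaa
Gm10413 A_52_P181533: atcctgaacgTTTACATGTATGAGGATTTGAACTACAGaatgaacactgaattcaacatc
Gm10413 A_51_P379687: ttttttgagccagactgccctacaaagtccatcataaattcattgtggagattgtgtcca
Ube2e2 A_52_P682007: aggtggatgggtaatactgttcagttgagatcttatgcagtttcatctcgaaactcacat

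The Gm3696 and 4930555G01Rik probes share 27 bases although they are named for different genes, and the pair of Gm10413 probes shares 28 bases. 4930555G01Rik A_52_P195235 and A_51_P107039, not shown, share 40 bases. Of the 66 pairs among the 12 takusan probes, 3 share at least 20 bases, and 1 of these joins different genes. The gene assignment of each takusan probe is therefore uncertain, since transcripts of a near-identical copy could bind it. The Ube2e2 probe shares at most 7 bases in a row with any of the 12.

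On build mm7, which the array annotation uses, D830030K20Rik A_52_P218930 lies at chr14:3253006-3253065 and Gm3696 A_52_P355751 at chr14:3984051-3984107. The Gm10413 probes run from A_51_P379687 at chr14:4115291-4115350 to A_52_P280668 at chr14:4123367-4123426. The 4930555G01Rik probes run from A_52_P195235 at chr14:4924518-4924577 to A_52_P522048 at chr14:4931518-4931577. The 2610042L04Rik probe A_52_P342836 lies at chr14:5369702-5369761 and the Ube2e2 probe A_52_P682007 at chr14:16704549-16704608. The Atxn7 probe A_51_P518592 lies at chr14:11922707-11922766. Thus the takusan probes sit between 6.55 and 8.67 Mb proximal of the Atxn7 probe, and the Ube2e2 probe 4.78 Mb distal of it. No annotation of this build was used here, so exon, intron or untranslated region is not given. In the RefSeq gene order of assembly GRCm38.p6, the 5 takusan genes are 18 to 23 measured genes before Atxn7 and Ube2e2 is 15 after it.

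All 13 probes were well above background and unsaturated on all 30 arrays. Median Cy5 signals ran from 158.9 for the Ube2e2 probe, with Gm10413 A_52_P272638 next at 159.2, to 5130 for Gm3696 A_52_P355751. Between 67.7% and 89.7% of spots per array were above background in Cy5. The markers of Purkinje cells (6 of 6), granule neurons (6 of 6) and Bergmann glia (4 of 4) were above background on all arrays. A group of 3 P10 mice on 1 slide stood apart in these markers: the mean granule neuron marker ratio was -3.31 in WT 1, -2.74 in KI 3 and -2.65 in KI 4, against -0.42 to 0.78 in the other 7 P10 mice. Purkinje markers were low in the same 3 mice, at -2.89, -2.46 and -2.54, while the fourth mouse of that slide, WT 2, was at 0.06. Erythrocyte markers were at 0.89, 0.81 and 2.40 in the 3 mice, against -1.13 to 1.13 in the other P10 mice. P10 values are therefore also given without WT 1, KI 3 and KI 4. In whole tissue, fewer cells of a type and less RNA per cell cannot be told apart.

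The takusan genes are taken first. For 2610042L04Rik, the gene that carries the takusan synonym, WT mice at P10 had log2 ratios of -0.99, -1.35, -0.97, -0.32 and -1.95, and KI mice had 0.20, 0.30, 0.15, -1.81 and -0.55. The groups overlapped, because WT 7 was the highest WT mouse and KI 8 fell among the lowest mice of either genotype. At P22 the WT values were -1.76, -1.92, -1.59, -1.41 and -1.83, and the KI values were -0.64, -0.75, -0.47 and -0.67. Every KI mouse was above every WT mouse at this age. At week 11 WT mice had -1.48, -0.79, -2.07, -2.45 and -1.97, and the 6 KI mice ran from -2.08 to -0.69 with a median of -0.79. The overlap came from WT 20, at the level of KI mice, and KI 21, at the level of WT mice. On the log2 scale, KI mice exceeded WT mice by 0.78 ± 0.34 (SE) at P10, by 1.07 ± 0.36 at P22 and by 0.75 ± 0.32 at week 11.

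The 5 probes of Gm10413 differ most in brightness and in position. A_51_P379687 shares no run of 20 bases with another member, and neither do A_52_P272638 and A_52_P280668. A_51_P379687 had -0.39, -0.28, -0.43, 0.49 and -0.35 in WT mice at P10 and 0.21, 0.53, 0.24, -0.54 and 0.14 in KI mice. The value of 0.49 is WT 7 and that of -0.54 is KI 8, each at the far end toward the other genotype. At P22 WT mice had -1.48, -0.90, -1.19, -1.02 and -1.05, and KI mice had 0.05, 0.10, -0.02 and 0.21. KI mice thus stood well above WT mice, with no overlap. At week 11 the WT values were -0.41, 0.13, -1.03, -1.29 and -0.94, and KI mice ran from -0.35 to -0.05 with a median of -0.25. Only WT 20 and WT 18 reached toward the KI range there, and WT 20 exceeded it. KI minus WT on this probe was 0.31 ± 0.205 (SE) at P10, 1.22 ± 0.22 at P22 and 0.49 ± 0.20 at week 11. The other 4 Gm10413 probes ran from 0.43 to 0.54 at P10, from 0.84 to 1.12 at P22 and from 0.64 to 0.76 at week 11.

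For 4930555G01Rik, A_52_P195235 was at -0.58, -0.97, -0.66, -0.00 and -1.21 in WT mice at P10 and at 0.37, 0.31, -0.17, -1.63 and -0.45 in KI mice. At P22 it was at -1.67, -1.93, -1.74, -1.81 and -1.60 in WT mice and at -0.89, -0.75, -0.70 and -0.69 in KI mice. The P10 groups overlapped and the P22 groups did not. At week 11 the 5 WT mice had -1.36, -0.80, -1.64, -2.10 and -1.71, and KI mice ran from -1.23 to -0.84 with a median of -1.03. WT 20 was the single WT mouse above the KI range. KI minus WT of the 4 probes of this gene ran from 0.22 to 0.37 at P10, from 0.83 to 1.40 at P22 and from 0.43 to 0.87 at week 11.

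Gm3696 and D830030K20Rik have 1 probe each. Gm3696 A_52_P355751 averaged -0.91 ± 0.53 (SD, n = 5) in WT and -0.20 ± 0.80 (n = 5) in KI mice at P10. Its means at P22 were -1.44 ± 0.15 (SD, n = 5) and -0.47 ± 0.17 (n = 4), and at week 11 -1.46 ± 0.57 (n = 5) and -0.71 ± 0.42 (n = 6). D830030K20Rik A_52_P218930 had the most proximal position and differed by 0.23 ± 0.24 (SE) at P10, 0.96 ± 0.25 at P22 and 0.42 ± 0.23 at week 11. In both genes the difference was highest at P22 in value.

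Averaged over the 9 takusan probes with a value on every array, WT mice ran from -1.25 to 0.09 and KI mice from -1.43 to 0.22 at P10. At P22 the ranges were -1.80 to -1.42 in WT and -0.65 to -0.45 in KI mice. At week 11 they were -2.00 to -0.71 in WT and -1.24 to -0.63 in KI mice. At P10 and week 11 the overlap went with 4 mice. WT 7 and WT 20 were nearer to the other KI mice than to the other WT mice of their age on 12 of 12 takusan probes, and KI 8 was nearer to WT mice on 12 of 12. KI 21 was nearer to WT mice on 7 probes and to KI mice on 5. These 4 mice were singled out by the same takusan values, so the counts are a description. The 12 probes vary together and are read on the same arrays, so they are not 12 separate observations. WT 7 and KI 8 shared a slide, and so did WT 20 and KI 21, which had the lowest median Cy5 signal of all arrays, 135.1. Their granule neuron marker ratios were 0.28, 0.23, 1.34 and 1.26, within the range of the other mice of their age. In other marker lists, KI 21 had the highest forebrain value of the week 11 mice, -0.32 against -0.86 to -0.60, in a list with 1 of 4 markers above background on all arrays. WT 20 had the highest choroid plexus value there, 1.86 with the next at 0.83. Their part in the result was not tested.

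Over the 13 probes, the 12 takusan probes were higher in KI mice and the Ube2e2 probe lower at each of the 3 ages. The median KI minus WT of the 12 takusan probes came to 0.40 (P10), 1.00 (P22) and 0.65 (week 11), against 0.01, 0.01 and -0.00 over all probes tested. By limma with Benjamini-Hochberg adjustment over all probes, 0 of 33114 probes (0%) passed for the mean of the ages, the members included, and 4274 had an unadjusted p under 0.05. At single ages 0 probes passed as well (background 0%), with 2910, 3179 and 1773 at an unadjusted p under 0.05 for P10, P22 and week 11. No member thus passes an adjusted test across the array for the difference by which it was chosen. At P22, KI and WT mice did not overlap on 13 of 13 probes, where 5.28% of all probes had groups apart. Other markers also differed in mean at that age: meninges 0.23 in KI and -0.33 in WT mice, forebrain -0.47 and -0.78, erythrocytes 0.03 and 0.44. KI and WT mice overlapped on each of these 3 lists, and their part in the takusan and Ube2e2 values was not tested. At P10 the groups were apart on 0 of 13 (1.62% of all probes) and at week 11 on 0 of 13 (0.408%).

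Without WT 7, KI 8, WT 20 and KI 21 the median of the takusan probes came to 0.95 (P10), 1.00 (P22) and 0.93 (week 11). These mice were singled out by the same takusan values, which pushes the difference upward by construction, so the numbers are a description. For the same reason little can be read from limma's calls over the whole array without them: 26 of 32814 probes for the mean of the ages (0.0792%), 8 at P10 (0.0233%), 18 at P22 (0.0541%) and 153 at week 11 (0.439%). Groups were then apart on 10 of 13 probes at P10 (2.79% of all probes), 13 of 13 at P22 and 12 of 13 at week 11 (3.58%). On the whole array 13 probes were then apart in 1 direction at every age (0.0396%), against 0 of 33114 with all mice. All 13 map to chromosome 14, but leaving out mice by their takusan values favours takusan probes in this count. Of the 13, 10 are takusan probes chosen here. The other 3 are 2610042L04Rik A_52_P160057, the unnamed A_52_P597277 and 5430405N12Rik A_51_P181705. The first carries the symbol of a member gene, and A_52_P597277 shares 24 bases in a row with a member.

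The P10 difference also rested on the mice with low neuronal markers, since KI 3 and KI 4 were the highest KI mice. Without WT 1, KI 3 and KI 4 the median takusan difference at P10 was 0.05, with probes from -0.18 to 0.41. Without those 3 and WT 7 and KI 8 it was 0.77, from 0.49 to 1.23, over 2 KI and 3 WT mice. WT 7 and KI 8 were singled out by their P10 takusan values, so leaving them out raises the median difference by construction. One mouse alone moved it as well: the median was 0.69 without KI 8, 0.65 without WT 7 and 0.26 without KI 4. Centring arrays by their median in place of loess gave 0.62 at P10. At week 11, scaling between arrays gave 0.26 and the Cy5 signal alone 0.38.

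Within slides that held both genotypes of an age, KI minus WT of the 9-probe mean was 1.05 on slide 1, -0.34 on slide 2 and 0.71 on slide 3 at P10. On slide 7 it was 1.36 at P22. At week 11 it was 0.07 on slide 5, 1.04 on slide 7 and 0.97 on slide 8. The slides with values near or below 0 were those of the 4 mice, and without them slide 2 gave 0.84 and slide 5 gave 0.68. Those mice were singled out by their takusan values, so this rise follows by construction. For Ube2e2 the values were -0.65, -0.50 and 0.24 on slides 1 to 3, -0.77 on slide 7 at P22, and -0.51, -0.64 and 0.09 on slides 5, 7 and 8 at week 11. At P22, 4 of the 5 WT mice lay on slide 6, which held no KI mouse, so slide 7 alone compares 1 KI with 1 WT mouse.

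The change of the genotype difference with age was tested in 1 model with 6 group means. By limma's F test of the interaction, 0 of 13 members passed, with adjusted p from 0.905 to 0.965, and 0 of 33114 probes (0%) passed overall. One member, Gm10413 A_51_P379687, had an unadjusted p under 0.05, 0.0128, as had 1649 of all probes. Between P10 and P22 the difference of the 12 takusan probes increased in value on all 12, with a median of 0.62, and 0 of 13 members passed limma's adjusted test (background 0%; 3 members and 1410 probes at unadjusted p under 0.05). Between P22 and week 11 it decreased in value on 12 of 12, with a median of -0.40, and again 0 of 13 passed (background 0%; 1 member and 1854 probes unadjusted). Between P10 and week 11 the median change was 0.20, and 0 of 13 passed (background 0%; 0 members and 2104 probes unadjusted). The 12 takusan probes vary together and are read on the same mice, so 12 of 12 in 1 direction is not 12 separate observations.

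A missed threshold does not show that the difference was stable. The 95% intervals of the P10 to P22 change reached from -0.72 to 2.18 over the takusan probes, and those of the P10 to week 11 change from -0.99 to 1.60. For A_51_P379687 the P10 to P22 change was larger without WT 1, KI 3 and KI 4, 1.13 with an interval of 0.45 to 1.80, and limma's adjusted p was 0.851. Over the 12 takusan probes the median change from P10 to P22 was 1.00 without those 3 mice and 0.07 without WT 7, KI 8, WT 20 and KI 21, and 0 of 13 members passed in either fit. WT 7 and KI 8 were singled out by their P10 takusan values, so leaving them out raises the P10 difference and lowers this change by construction. The size of the change thus depended on which P10 mice were included, and the 0.07 is a description.

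The course with age was also followed within each genotype. WT mice contribute to the difference by which the probes were chosen, so these steps are not fully separate from that choice. From P10 to P22 in WT mice, 7 of 12 takusan probes fell and Ube2e2 rose by limma's adjusted test, 8 members in all, where 15.8% of all probes fell, 14.3% rose and 30.1% changed in either direction. D830030K20Rik A_52_P218930 fell by 1.09 ± 0.24 (SE; limma adjusted p = 0.000991), and Gm10413 A_51_P379687 fell by 0.94 ± 0.205 (adjusted p = 0.000924). All 4 probes of 4930555G01Rik fell, by 1.00 to 1.10, and of these A_52_P195235 and A_51_P107039 share 40 bases in a row. The takusan probes vary together on the same mice, so 7 of 12 is not 7 separate observations. Gm3696 was at -0.53 ± 0.30 and 2610042L04Rik A_52_P342836 at -0.59 ± 0.34, and neither passed. With slide as a block 0 of 13 passed (15.3% of all probes), and with scan day as a block 0 (10.9%); WT mice of P10 and of P22 never shared a slide. With Agilent's processed signals 5 passed (27.8% of all probes) and with scaling between arrays 1 (21.9%). Without WT 7 the count was 5 (28.9%), and without WT 26 it was 5 (26.3%). It was 8 without WT 7, KI 8, WT 20 and KI 21 (29.9% of all probes) and 8 without WT 1, KI 3 and KI 4 (29.4%). Without the first 4 mice the members called differed: Ube2e2 no longer passed (limma adjusted p = 0.0509) and Gm10413 A_52_P291428 did (0.0185).

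In KI mice from P10 to P22, 0 of 13 members passed limma's adjusted test, where 21.6% of all probes did (9.91% higher and 11.7% lower), and 0 members had an unadjusted p under 0.05. The takusan probes ran from -0.45 to 0.07. Without KI 8 alone 2 passed (20.2% of all probes), and without WT 7, KI 8, WT 20 and KI 21 the count was 7 (22% of all probes), with takusan values from -0.77 to -0.17. KI 8 was singled out by its low P10 takusan values, so larger falls without it follow by construction, and both counts are a description. Without WT 1, KI 3 and KI 4 the count was 0 (20%), with takusan values from -0.04 to 0.38. From P22 to week 11, 0 of 13 passed in WT (1.66% of all probes; 2 members at unadjusted p under 0.05) and 0 of 13 in KI mice (1.4%; 0 members).

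Across mice the takusan probes varied together. After group means were removed, r among the 66 pairs ran from 0.72 to 0.98 with a median of 0.88 over 30 mice, which share the arrays and, for some pairs, sequence. These values lean on WT 7, KI 8, WT 20 and KI 21. At P10 the SD of the 9-probe mean was 0.67 in all KI and 0.51 in all WT mice, against 0.33 and 0.21 without them. Correlations without those mice are not given. A_51_P379687, without a shared run, belonged to the same block. Among probes of other named genes, LOC673676 A_52_P173453, at chr14:4335942-4336001, was most like each of the 5 takusan genes, with r from 0.87 to 0.95 over 30 arrays. It shares 34 bases in a row with a 4930555G01Rik probe. Next among named genes were genes on other chromosomes: Tpbg, a trophoblast glycoprotein, for 4930555G01Rik (0.78), 2610042L04Rik (0.73), Gm3696 (0.72) and D830030K20Rik (0.83), and Anxa2, a calcium-dependent membrane-binding protein, for Gm10413 (0.72). The remaining genes among the 3 most like were Anxa2 for 4930555G01Rik (0.75) and D830030K20Rik (0.83), Prokr2 for Gm10413 (0.71), Coch for 2610042L04Rik (0.69) and Osbpl5 for Gm3696 (0.70). These correlations keep group differences, age included. Unnamed probes and other probes of the same genes are not in this order: with group means removed, A_52_P597277 had r = 0.99 with the 9-probe mean and 2610042L04Rik A_52_P160057 had 0.98, against 0.97 for LOC673676. Of the 10 probes most like the takusan profile, 5 lay on chromosome 14. Chromosome 14 probes such as LOC673676 share sequence with members, so position and shared sequence cannot be told apart in this count.

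Other probes of the same genes or with shared sequence gave a mixed picture. For 2610042L04Rik, A_52_P160057 differed by 0.62, 1.05 and 0.71 at P10, P22 and week 11, close to the member probe, while A_52_P386075 differed by 0.22, 0.42 and 0.15. A further 4 probes share at least 20 bases with a member, all at the same end of chromosome 14. LOC673676 differed by 0.39, 0.72 and 0.66, and A_52_P597277 by 0.67, 1.40 and 0.94. A_52_P368772 differed by -0.27, 0.65 and 0.48, and A_52_P234544 by -0.35, 0.28 and -0.13. None of these 6 passed limma's adjusted test for the mean of the ages (background 0%).

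The Ube2e2 probe differed in the opposite direction from the takusan probes. WT mice at P10 had 0.42, 0.39, 0.62, 0.40 and -0.42 and KI mice -0.07, -0.42, -0.08, 0.11 and -0.18, so WT mice were higher except WT 10. At P22 WT mice had 0.81, 0.55, 0.76, 0.71 and 0.76 and KI mice -0.00, 0.10, -0.23 and 0.04, with no overlap. At week 11 the WT values were 0.51, 0.55, 0.76, 0.18 and -0.29, and KI mice ran from -0.19 to 0.19 with a median of 0.08. WT 33 was the lowest mouse of either genotype there. The difference came to -0.41 ± 0.16 (SE) in P10 mice, -0.74 ± 0.17 in P22 mice and -0.31 ± 0.16 in week 11 mice, and -0.44 at P10 and -0.28 at week 11 without the 4 mice. All 4 of those mice, WT 7, KI 8, WT 20 and KI 21, were nearer to WT mice on this probe. Its change was -0.33 from P10 to P22, with a 95% interval of -0.82 to 0.16, and 0.43 from P22 to week 11, with an interval of -0.05 to 0.91.

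The name Ube2e2 rests on different transcripts for its probes. The member probe was designed on a clone with accession AK044807, and A_51_P434697, at chr14:16391629-16391688, matches the RefSeq transcript in the files. From P10 to P22 in WT mice the member probe rose by 0.44 ± 0.16 (SE; limma adjusted p = 0.0439, and 0.0509 without the 4 mice) and A_51_P434697 fell by 0.56 ± 0.11 (adjusted p = 0.000314). Over mice within groups the 2 probes had r = -0.20. KI minus WT of A_51_P434697 was 0.06 ± 0.11 at P10 and 0.14 ± 0.10 at week 11, opposite in sign to the member probe, and 2 usable KI arrays at P22 were too few for that age. The 3 genes most like the member probe were Trps1 (r = 0.86), 4732418C07Rik (0.86) and Ywhae (0.85) over 30 arrays, none of them on chromosome 14.

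One probe outside the chosen set separated mice in the way of the takusan probes but in the opposite direction. 5430405N12Rik A_51_P181705, at chr14:10056435-10056494 and 1.87 Mb proximal of the Atxn7 probe, was picked out after its values were seen. It is among the 13 probes with groups apart at every age without WT 7, KI 8, WT 20 and KI 21. Its values in those mice, and its differences without them, are therefore a description. At P10 WT mice with a usable spot had 0.41, -0.10, 0.43 and -1.25 and KI mice -0.63, -0.68, -1.03 and -0.20. The WT value of -1.25 was WT 7 and the KI value of -0.20 was KI 8. At P22 WT mice had 0.10, -0.19, -0.32, -0.11 and 0.15 and KI mice -0.99, -1.34 and -1.005, without overlap. At week 11 WT mice had -0.14, -0.84, -0.27, -0.17 and -0.39, of which -0.84 was WT 20. KI mice at that age ran from -1.30 to 0.10, and the highest, 0.10, was KI 21. KI minus WT was -0.51, -1.04 and -0.59 at the 3 ages, and -1.03, -1.04 and -0.92 without the 4 mice. Its r with the 12 takusan probes within groups ran from -0.71 to -0.47, which also leans on WT 7, KI 8, WT 20 and KI 21. It shares no run of 20 bases with them.

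The rest of the chromosome was laid out by distance from Atxn7. Of the 30 probes more than 6 Mb proximal, 12 were members. Besides the members, 3 differed by more than 0.5 log2 in the mean of the ages. All 3 share a gene symbol or at least 20 bases with a member. Within 6 Mb proximal there were 2 of 31, 5430405N12Rik and a probe of the clone AK039493, at -0.61 and 1.70 Mb from Atxn7. Up to 6 Mb distal there were 0 of 38, the Ube2e2 member included, and from 6 to 20 Mb distal 0 of 249. Farther distal there were 5 of 852: Pcdh8, Cpne6, Cbln3, Slc25a37 and Cdhr1, 22.6 to 62.5 Mb away. Over all probes tested, 0.513% (170 of 33114) differed by more than 0.5, and over chromosome 14 without the members 0.842% (10 of 1187). The up to 30 measured genes nearest to Atxn7 on each side, 47 genes with the members left out, had 66 tested probes, of which 0 passed limma's adjusted test (background 0%), and a median absolute difference of 0.09, against 0.08 over all probes. The Atxn7 probe itself differed by -0.26 ± 0.20 (SE) at P10, -0.56 ± 0.215 at P22 and -0.15 ± 0.19 at week 11, and its r with the takusan probes within groups ran from -0.35 to 0.14.

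Genes that act with these products were read as lists. Of the listed E2 enzymes, 0 of 24 passed limma's interaction test (background 0%), with Ube2e3 and Ube2m at 0.0934 and 0.152 before adjustment. From P10 to P22 in WT mice 6 of 28 rose and 6 fell (14.3% and 15.8% of all probes), Ube2m among them (fell by 0.56 ± 0.18 SE; limma adjusted p = 0.0199). Of the SAGA subunits, 0 of 18 passed the interaction test, with Taf10, Supt3 and Taf6l at 0.0416, 0.0875 and 0.0877 before adjustment. In WT mice 2 of 19 rose and 7 fell from P10 to P22 (14.3% and 15.8% of all probes), the fallers including Taf10 by 0.43, Supt3 by 0.79 and Taf6l by 0.52. Of the postsynaptic scaffold and glutamate receptor genes, 0 of 19 passed the interaction test, with Dlg2, Homer2 and Homer1 at 0.0487, 0.168 and 0.21 before adjustment. In WT mice 9 of 23 of them rose and 3 fell from P10 to P22 (14.3% and 15.8% of all probes), with Homer2 falling by 1.22 ± 0.21 (SE; limma adjusted p = 7.64e-05). KI minus WT at each age passed for 0 genes of the 3 lists (background 0%), with list medians from -0.06 to -0.03 for E2 enzymes, -0.02 to 0.03 for SAGA and -0.15 to -0.03 for the postsynaptic list.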

How the data were processed

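The 30 scanner files hold spot signals and backgrounds as intensity values from Agilent Feature Extraction 9.5.3.1, per the file headers. They also hold flags in a unit recorded as other and log10 ratios, per the file headers. The deposited value table, 1905 probes, gives deposited log2 values, for which the series' design text names BRB-ArrayTools; it runs reference over sample (r with the scanner ratio -1 to -0.994, column medians 0.0679 to 1.14), and its centring stays unknown. It served as an alternative. In limma 3.58.1 (R 4.3.3), background was removed by normexp (offset 50) and ratios were normalised by loess within arrays, outlier spots were set to missing (0.807% to 10.2% per array; 4 of 390 member values) and spots of a probe were averaged. A probe was kept where 4 or more of the 30 arrays had Cy5 above background. Each comparison needed 3 or more usable arrays in every group that entered it, so the number of tested probes differs between comparisons. Moderated tests used 24 residual and 3.97 prior degrees of freedom and an adjusted p threshold of 0.05 over all tested probes. On simulated data with 33114 probes, the interaction test called 66 of 100 planted changes of 1 log2 and 99 of 100 of 2 log2. It made 8 false calls there, and changes of 1 log2 could thus be missed. The probes given a change were drawn at random from the array, so the share called is no rate for the members. Residual SDs of the members ran from 0.26 for Ube2e2 to 0.57 for 4930555G01Rik A_52_P522048, and probes of such spread were not simulated separately. The number of arrays limits the precision. Symbols were updated by accession for 22951 probes, kept from the files for 11758 and missing for 6465. Named genes were the members, Atxn7, other probes of the 6 genes, the 3 genes most like each by Pearson r, and from each list the 3 with the smallest interaction p; 1 gene so named is not reported here. Members and lists were chosen with earlier results of these data known. Relatives by protein alignment were planned; a protein table was not used here, so shared runs of at least 20 bases, chosen after seeing the data, took their place. Alternatives were the background correction, centring, scaling, Cy5 alone, slide, scan day, array weights, no filter, the criterion of the series record, each mouse left out, and, added after seeing the data, leaving out the mice that stood apart.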

Additional observations from a re-analysis of the deposited data

Results flagged for a closer look

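Within groups of 4 to 6 mice, 93 sets of values of the members, 5430405N12Rik, Atxn7 and the 9-probe takusan mean were searched for 1 mouse far from the rest, and 13 held one. Chance alone marks about 1 in 20 groups, and the takusan probes repeat each other. KI 21 was far below the other KI mice at week 11 on 2610042L04Rik A_52_P342836 (-2.08), Gm3696 A_52_P355751 (-1.54), 4930555G01Rik A_51_P107039 (-1.51) and A_52_P603540 (-1.70), Gm10413 A_52_P291428 (-1.94) and the takusan mean (-1.24). It was far above them on 5430405N12Rik (0.10). WT 7 was far above the other WT mice at P10 on Gm10413 A_51_P379687 (0.49) and A_52_P181533 (0.19) and on 4930555G01Rik A_52_P522048 (0.44). The remaining values concerned other mice: KI 17 at P22 on A_51_P107039 (-0.73), KI 19 at week 11 on Gm10413 A_52_P280668 (-0.0157), and WT 10 at P10 on Ube2e2 (-0.42).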

How the results depend on the processing

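No paired analysis was possible because the mouse numbers are unique and no number is shared between groups; slides held several mice, and values within slides and with slide as a block stand in for one. The interaction and the changes between ages stayed at 0 of 13 members in every alternative run, including the criterion of the series record (2 members past its filter, 0 with p under its limit) and the deposited value table, which holds 4 members (lowest limma adjusted p 0.987). The count of members called from P10 to P22 in WT mice, 8, was 5 with Agilent's processed signals, 1 with scaling between arrays, 0 when slide entered as a block and 0 when scan day did, and ran from 5 to 10 with each mouse left out. In KI mice the count, 0, was 7 without WT 7, KI 8, WT 20 and KI 21 and ran from 0 to 2 with each mouse left out. Those mice were singled out by their takusan values, so values without WT 7, KI 8, WT 20 and KI 21 are a description. The median takusan difference at P10, 0.40, was 0.95 without those 4 mice and 0.05 without WT 1, KI 3 and KI 4. With each mouse left out it ran from 0.26 to 0.69 at P10, 0.95 to 1.03 at P22 and 0.53 to 0.85 at week 11. No called value changed sign. The causes were not tested. Slide, age and genotype are partly confounded, and the dim probes, among them Ube2e2, limit the precision.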
